A study of Mus musculus with 6 samples.

Results

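The myogenic regulatory factors are 4 basic helix-loop-helix (bHLH) transcription factors, encoded in the mouse by Myod1, Myog, Myf5 and Myf6, and their rows were taken by symbol from a count table of 55286 gene symbols. All 4 were present and all 4 passed the filter on low counts that left 17400 genes for testing. Myf5 passed only through its level in muscle, and Myf6, with 0 counts in MEF, only through muscle and reprogrammed cells. Calls of Myf5 and Myf6 against the groups where they were near 0 were therefore in part set by the filter. The study compared mouse embryonic fibroblasts (MEF), muscle, and cells given by the labels as direct reprogramming or transdifferentiation, called reprogrammed cells here, with 2 RNA-seq libraries in each group. The sources used here do not give the factor or agent used for reprogramming, the time after it, the strain, or the age and source of the muscle. They also do not say if the 2 libraries of a group stem from different cultures or animals, so the spread behind each p-value may be only technical.

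Each factor binds DNA as a dimer with a ubiquitous E protein, at short sites known as E-boxes, and turns on genes of the muscle lineage. Myf5 and Myod1 act early, in setting the myoblast fate, with Myf5 also expressed in satellite cells, the stem cells of muscle. Myog drives terminal differentiation and fusion, and Myf6 (also called MRF4) is the factor most associated with mature fibres, although it has an early role in the embryo as well. Id proteins hold E proteins away from these factors, and Myod1 is the classical factor for converting fibroblasts to muscle.

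Counted reads per library ran from 16817033 to 24584951. Levels are in CPM, the read count relative to the total of the library, scaled between libraries by the TMM method of edgeR. A count of 0 in a library allows a level of up to 0.128 to 0.183 CPM, the level of 3 counts, for counting error only. The labels were checked against marker lists. The 12 mature fibre markers summed to 256 to 389 CPM in MEF, 51961 to 53014 CPM in muscle and 40019 to 50791 CPM in reprogrammed cells. The 10 fibroblast markers summed to 17277 to 27195, 6877 to 12671 and 12540 to 15692 CPM in the same order, so fibroblast markers were present in every group. The 10 macrophage markers summed to 86.8 to 88.3 CPM in MEF, 2.13 to 5.67 CPM in muscle, where Adgre1, Ptprc and Tyrobp were at 0, and 736 to 872 CPM in reprogrammed cells. In bulk RNA, fewer cells of a type and less RNA per cell cannot be told apart, and the part of these other cell types in the levels below was not tested.

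Myod1 lies on chromosome 7 (GENCODE M21 on mm10, 46376474 to 46379099, plus strand) and Myog on chromosome 1 (134289989 to 134292548, plus strand). Myf5 (107482908 to 107486134) and Myf6 (107492853 to 107494737) lie side by side on the minus strand of chromosome 10, with 6718 bases between them. Each gene has 1 annotated transcript of 3 exons, and no annotated gene overlaps any of them. Since the 4 proteins share their DNA-binding and dimerization domain, the transcripts were compared to see whether a read could fall on more than 1 of them. The following stretches, all within exon 1, are the coding window of 75 bases, the length of a read, in which the other 3 genes come closest to Myod1 (GENCODE M21 transcripts; chr7:46377086-46377160 in Myod1, chr1:134290385-134290459 in Myog, chr10:107485522-107485596 in Myf5 and chr10:107494265-107494339 in Myf6, each read 5′ to 3′ along its gene). Capitals mark bases that differ from Myod1.
Myod1: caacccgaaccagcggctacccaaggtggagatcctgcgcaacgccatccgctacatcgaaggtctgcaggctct
Myog: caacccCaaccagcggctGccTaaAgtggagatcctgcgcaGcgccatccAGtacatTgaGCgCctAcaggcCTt
Myf5: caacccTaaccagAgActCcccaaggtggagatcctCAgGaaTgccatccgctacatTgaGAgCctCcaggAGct
Myf6: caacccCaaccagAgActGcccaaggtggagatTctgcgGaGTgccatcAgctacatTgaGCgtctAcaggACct
Even here Myog differed from Myod1 at 14 bases and Myf5 and Myf6 at 15 bases each. Over whole transcripts the longest identical run shared by any pair was 26 bases, between Myod1 and Myf5, and no window of 75 bases was shared by any pair. A read of full length without sequencing errors thus belonged to a single member of the family. A transcript from an introduced mouse copy of a factor, however, would be counted with the endogenous gene, and whether reprogrammed cells carried one was not tested.

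RefSeq promoter sequences (GRCm38.p6) matched 2 of the 4 members, Myog, which was abundant in reprogrammed cells, and Myf5, which had few counts there. Both are shown for that contrast, and the 250 bases before the start are printed 5′ to 3′ along the gene, for Myog chr1:134289754-134290003 (plus strand) and for Myf5 chr10:107486135-107486384 (minus strand). Capitals mark E-boxes, searched as CANNTG, a pattern that reads the same on both strands.
Myog: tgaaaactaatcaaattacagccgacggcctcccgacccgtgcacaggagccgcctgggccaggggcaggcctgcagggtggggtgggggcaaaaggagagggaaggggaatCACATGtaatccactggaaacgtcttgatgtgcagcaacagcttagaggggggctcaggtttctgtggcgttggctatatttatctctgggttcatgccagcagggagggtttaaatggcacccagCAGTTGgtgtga
Myf5: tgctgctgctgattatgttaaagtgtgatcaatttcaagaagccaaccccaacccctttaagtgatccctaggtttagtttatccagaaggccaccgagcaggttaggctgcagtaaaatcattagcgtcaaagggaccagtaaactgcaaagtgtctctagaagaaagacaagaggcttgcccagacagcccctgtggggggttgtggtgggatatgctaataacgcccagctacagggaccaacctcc
The Myog window held 2 E-boxes, CACATG beginning at position -138 and CAGTTG at -12, counted from the RefSeq start (GENCODE M21 places the start of Myog 15 bases further upstream). The Myf5 window held 0. Of all 32851 promoter windows of this length 66.2% held a CANNTG, and 11.1% held CAGTTG or its reverse complement CAACTG. These are matches of letters only, and the absence of a match speaks for these letters in this window alone.

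In MEF, Myod1 and Myog were low and Myf5 and Myf6 were below the level of 3 counts. Myod1, the factor that sets the myoblast fate, had 26 and 11 counts in the 2 MEF libraries, or 1.43 and 0.534 CPM. Myog had 29 and 25 counts (1.597 and 1.21 CPM), Myf5 had 1 count in each library, and Myf6 had 0 in both. Together the 4 factors made up 1.86 and 1.12 CPM per kilobase of transcript in the MEF libraries. Myod1 and Myog were thus detected in MEF at low levels, ranking between 12191 and 14559 per transcript length among the 17042 tested genes with an annotated length, while Myf5 and Myf6 stood below the level of 3 counts in each MEF library.

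**Figure D1:**
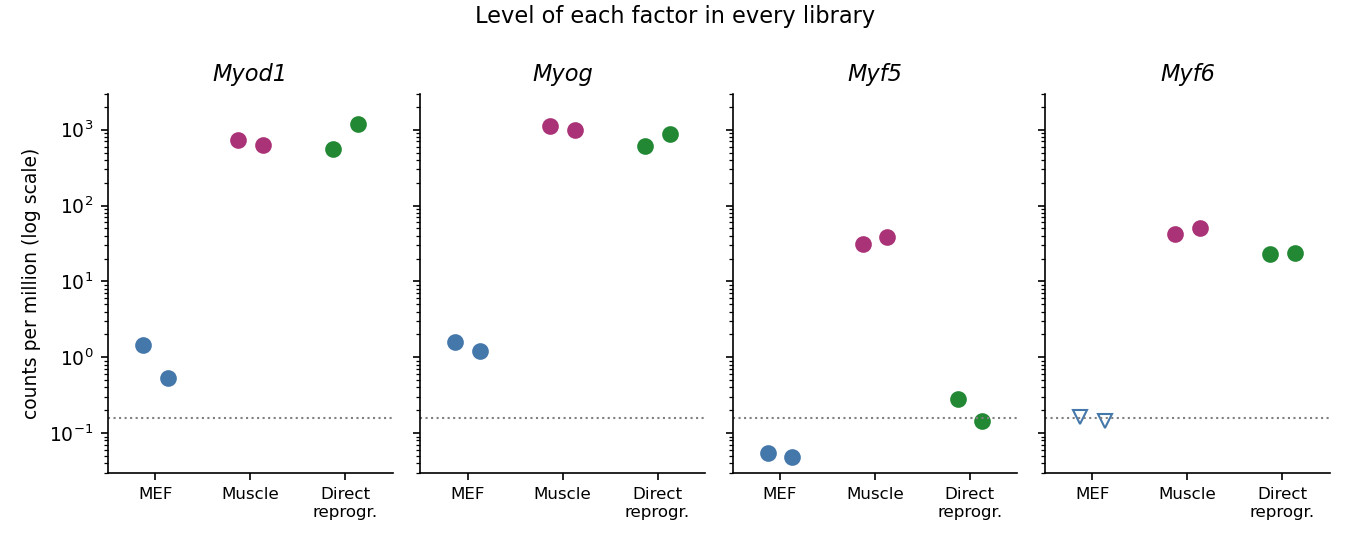
Level of Myod1, Myog, Myf5 and Myf6 in every library, in CPM on a log axis. Each filled point is 1 library, open triangles are libraries with 0 counts drawn at the level of 3 counts, and the dotted line is the mean level of 3 counts. Reprogrammed cells reach the muscle range for Myod1, lie below it for Myog and Myf6, and sit near the detection limit for Myf5 (0.281 and 0.145 CPM).

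All 4 factors were higher in muscle than in MEF, where 17.3% of all tested genes were called higher. Myod1 was at 724 and 622 CPM in the 2 muscle libraries, and Myog, the differentiation factor, at 1102 and 992 CPM. The other factors were far less abundant, with Myf5 at 31.0 and 38.6 CPM and Myf6 at 41.96 and 50.1 CPM. No muscle library overlapped with a MEF library for any factor, although the share of all tested genes separated in this way was not counted. The log2 fold changes were 9.43 ± 0.61 for Myod1, 9.54 ± 0.39 for Myog and 9.23 ± 0.54 for Myf5 (SE; edgeR quasi-likelihood test, adjusted p = 9.3e-06, 1.0e-06 and 4.6e-06). For Myf5, 1362 counts in muscle stood against 2 in MEF, a ratio of 662 with an exact counting interval of 183 to 5469 (95%). Myf6, with 0 counts in MEF, was at least 296-fold higher in muscle (edgeR adjusted p = 4.6e-06). Myod1 and Myog were among the most abundant transcripts of muscle per length, at ranks 154 and 187 for Myod1 and 72 and 86 for Myog in the 2 libraries, whereas Myf6 ranked at 2136 and 1756 and Myf5 at 4144 and 3463.

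The authors' deposited table lists all 4 factors among its 2806 genes. Its header names no contrast, but its sign was opposite to that of muscle over MEF for all 2645 of its genes tested here, so its fold changes read as MEF over muscle. In the authors' deposited table the log2 fold changes were -9.17 for Myod1, -9.397 for Myog, -8.74 for Myf5 and -10.9 for Myf6, with standard errors of 0.573, 0.342, 1.04 and 1.41. Their adjusted p-values in the authors' deposited table were 9.0e-57, 3.9e-164, 5.3e-17 and 3.1e-15, the larger errors standing with the 2 genes that had at most 2 counts in MEF.

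In reprogrammed cells 3 of the 4 factors were higher than in MEF and Myf5 was not called, against 15.9% of all tested genes called higher. Myod1 was at 559 and 1189 CPM a fitted difference of 9.81 ± 0.62 in log2 units (edgeR adjusted p = 1.0e-05). Myog was at 601 and 865 CPM a fitted difference of 9.02 ± 0.38 in log2 units (edgeR adjusted p = 1.6e-06). Myf6 was at 22.7 and 23.8 CPM, at least 150-fold higher than in MEF (edgeR adjusted p = 9.4e-06), and its 2 libraries lay closer together than those of any other factor. For these 3 genes, and for Myf5 too, no reprogrammed library overlapped with a MEF library. The share of all tested genes separated in this way was not counted.

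Myf5 was the factor not called against MEF. It had 5 and 3 counts in the 2 reprogrammed libraries (0.281 and 0.145 CPM), against 1 and 1 in MEF, and the second of these values is the level of 3 counts itself. The 8 counts against 2 give a ratio of 4.03 with an exact counting interval of 0.805 to 38.97 (95%). The fitted log2 fold change of 1.89 ± 0.81 did not pass the threshold (edgeR unadjusted p = 0.0482, edgeR adjusted p = 0.126). Both reprogrammed libraries lay above both MEF libraries, but a rise from MEF was not established at this depth. The distance to muscle was far outside counting error: Myf5 was at 0.807% and 0.417% of the muscle mean in the 2 reprogrammed libraries. Its log2 fold change between reprogrammed cells and muscle was -7.33 ± 0.46 (edgeR adjusted p = 1.0e-04), in a comparison in which 2.46% of all tested genes were called lower. The ratio of muscle to reprogrammed cells was 164, with an exact counting interval of 83.0 to 381 (95%), and by adjusted p Myf5 ranked 12 among the 17400 genes tested.

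The remaining 3 factors were not called between reprogrammed cells and muscle. Myod1 had the highest library (reprogrammed replicate 2, 1189 CPM) and the lowest (reprogrammed replicate 1, 559 CPM) of the 4, so that the groups overlapped, and its log2 fold change was 0.38 ± 0.41 (edgeR adjusted p = 0.723). The sign of that value rests on reprogrammed replicate 2, without which it was -0.28. Myog was lower in both reprogrammed libraries than in either muscle library, at 57.4% and 82.6% of the muscle mean, a difference of -0.51 ± 0.26 that did not pass the threshold (edgeR adjusted p = 0.316). Myf6 was at 49.3% and 51.8% of the muscle mean. Its log2 fold change of -0.98 ± 0.28 had an edgeR adjusted p = 0.0663, against 0.0306 with DESeq2 and 0.0413 when only the 4 libraries compared were fitted. A p above the threshold does not show that these levels were the same.

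**Figure D2:**
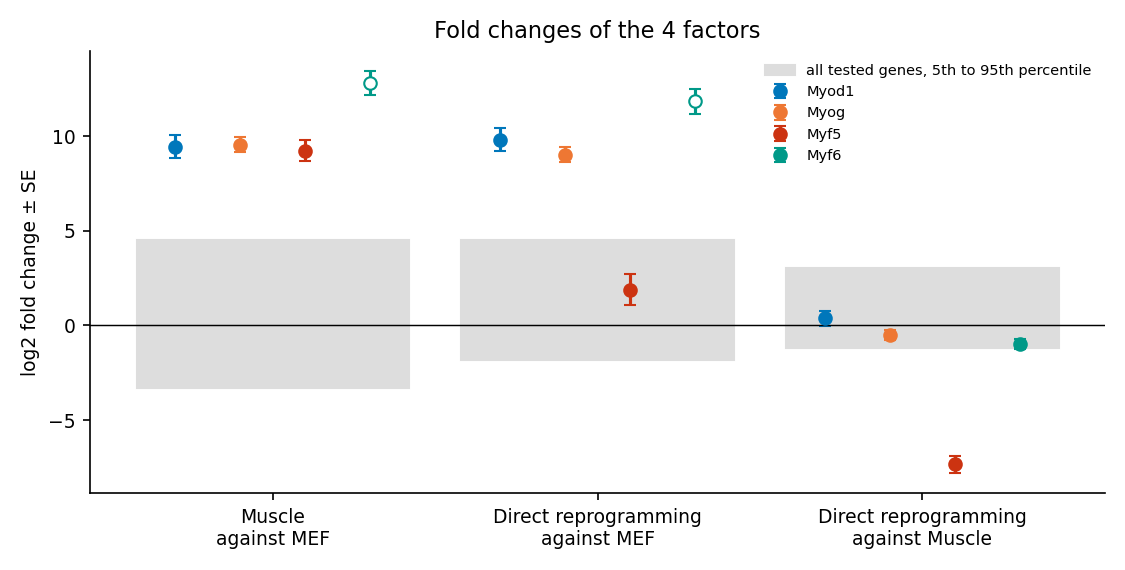
Log2 fold change (y axis) of each factor in the 3 comparisons, with SE bars from the edgeR fit. Grey boxes span the 5th to 95th percentile of all tested genes. Open points (Myf6 against MEF) rest on 0 counts in MEF and are no estimate of size. Myf5 sits inside the grey box in reprogrammed cells against MEF (1.89) and far below it against muscle (-7.33).

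Levels of different genes can be compared per length, as CPM per kilobase of transcript. In muscle the order was the same in both libraries: Myog (737 and 664), Myod1 (389 and 334), Myf6 (33.2 and 39.7) and Myf5 (14.9 and 18.6), with no overlap between neighbours in that order. In reprogrammed cells Myod1 (300.1 and 639) and Myog (402 and 579) overlapped and changed places between the libraries, followed by Myf6 (17.98 and 18.9) and Myf5 (0.135 and 0.0697). The sum of the 4 factors was 1175 and 1056 CPM per kilobase in muscle and 720 and 1236 in reprogrammed cells, so the total level of the family overlapped between these groups.

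As shares of that sum, Myog made up 62.8% ± 0.0430 (SD, n = 2) in muscle and 51.3% ± 6.37 in reprogrammed cells. Myod1 made up 32.4% ± 1.04 and 46.7% ± 7.06 in the same groups, and the 2 libraries of each group did not overlap for either factor. Myf5 was at 1.51% ± 0.346 of the family in muscle and 0.0122% ± 0.00926 in reprogrammed cells, and Myf6 was at 3.29% ± 0.655 and 2.01% ± 0.687. Within a library the ratio of Myog to Myod1 counts, which does not depend on the scaling between libraries, was 1.52 and 1.59 in muscle and 1.08 and 0.728 in reprogrammed cells. The ratio of Myf6 to Myf5 counts differed far more, at 1.35 and 1.296 in muscle and 80.8 and 164 in reprogrammed cells. With 2 libraries a group an exact permutation test cannot give a two-sided p under 0.333, and these shares and ratios are given without a test.

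**Figure D3:**
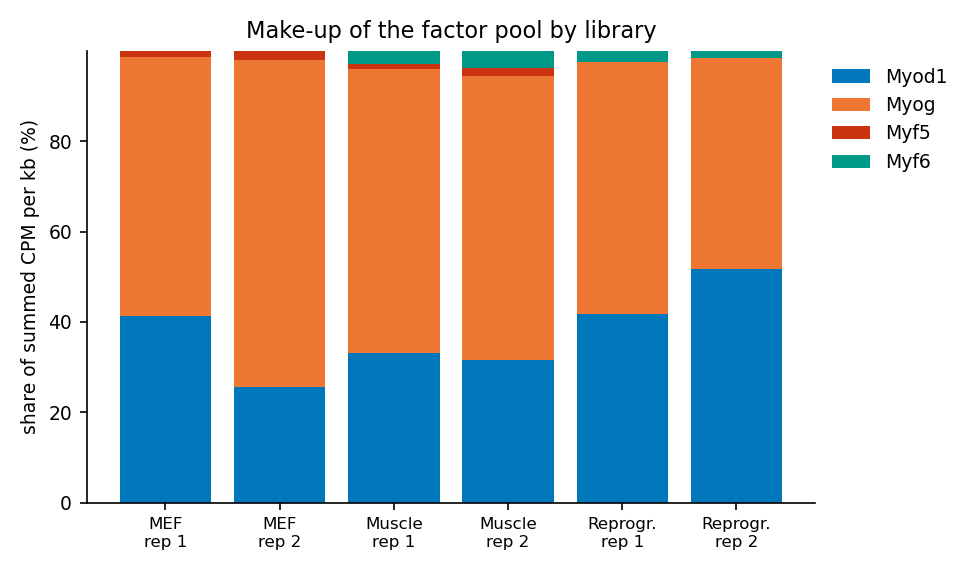
Share of each factor in the summed CPM per kilobase of the 4 factors (y axis, percent), 1 bar per library. The MEF bars rest on 56 and 37 counts in all. Myog holds 62.8% in both muscle libraries, against 55.8% and 46.8% in reprogrammed cells, where the Myf5 segment is too thin to see.

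The genes whose pattern over the 6 libraries was most like that of each factor were found from log2 CPM centred on each gene's mean, as the root mean square difference. The points share libraries and 3 groups, so many muscle genes lie close and the values are a description. For Myf5 the nearest gene of all those tested was Pax7, which marks satellite cells, at a distance of 0.32. Pax7 had 0 counts in both MEF libraries, 16.6 and 14.5 CPM in muscle and 0.0562 and 0.0484 CPM (1 count each) in reprogrammed cells. Pax7 was also called lower in reprogrammed cells than in muscle (edgeR adjusted p = 2.5e-04). Like Myf5, Pax7 passed the filter only through its level in muscle, and it was picked for its likeness to Myf5. Its call is therefore no separate support. Myf5 and Pax7 do not stand for all markers of satellite cells and myoblasts. The 9 markers listed for these cells summed to 5767 to 6004 CPM in muscle and 4294 to 6627 CPM in reprogrammed cells. Des alone had 4231 and 4500 CPM on average in these groups. Of the 8 tested, 2 were higher and 2 lower in reprogrammed cells than in muscle, against 7.58% and 2.46% of all tested genes. Next to Myf5 came Cd300c, Mgl2, 2310020H05Rik and Neu2, at distances of 0.53 to 0.83, all of them likewise under 1 CPM in every MEF and reprogrammed library. The other factors lay more than 3 log2 units from Myf5 by this measure (3.02 to 3.83).

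The nearest genes to Myod1 were Cacng1, a subunit associated with the calcium channel of skeletal muscle, then Sypl2, Adprhl1, Mylk4 and the fast myosin Myh4 (distances of 0.27 to 0.40). Myog lay nearest to Trp63, Mybph, 3425401B19Rik, the muscle caveolin Cav3 and the RNA-binding protein Rbm24 (0.15 to 0.24). Myf6 lay nearest to Gm14635, the secretin receptor Sctr, the calcium-binding protein Hrc, the small heat shock protein Hspb3 and the integrin Itgb6 (0.11 to 0.19). Hrc, for instance, was at 0.643 ± 0.0525 CPM in MEF, 365 ± 21.8 CPM in muscle and 192 ± 5.01 CPM in reprogrammed cells (SD, n = 2), close to the proportions of Myf6. Myod1, Myog and Myf6 lay nearer to each other (0.485 to 0.915) than to Myf5. Among the genes nearest to Myod1, Myog was at rank 9 and Myf6 at rank 94. Among those nearest to Myog, Myod1 was at rank 54 and Myf6 at rank 56. From Myf6, Myog was at rank 58 and Myod1 at rank 172.

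**Figure D4:**
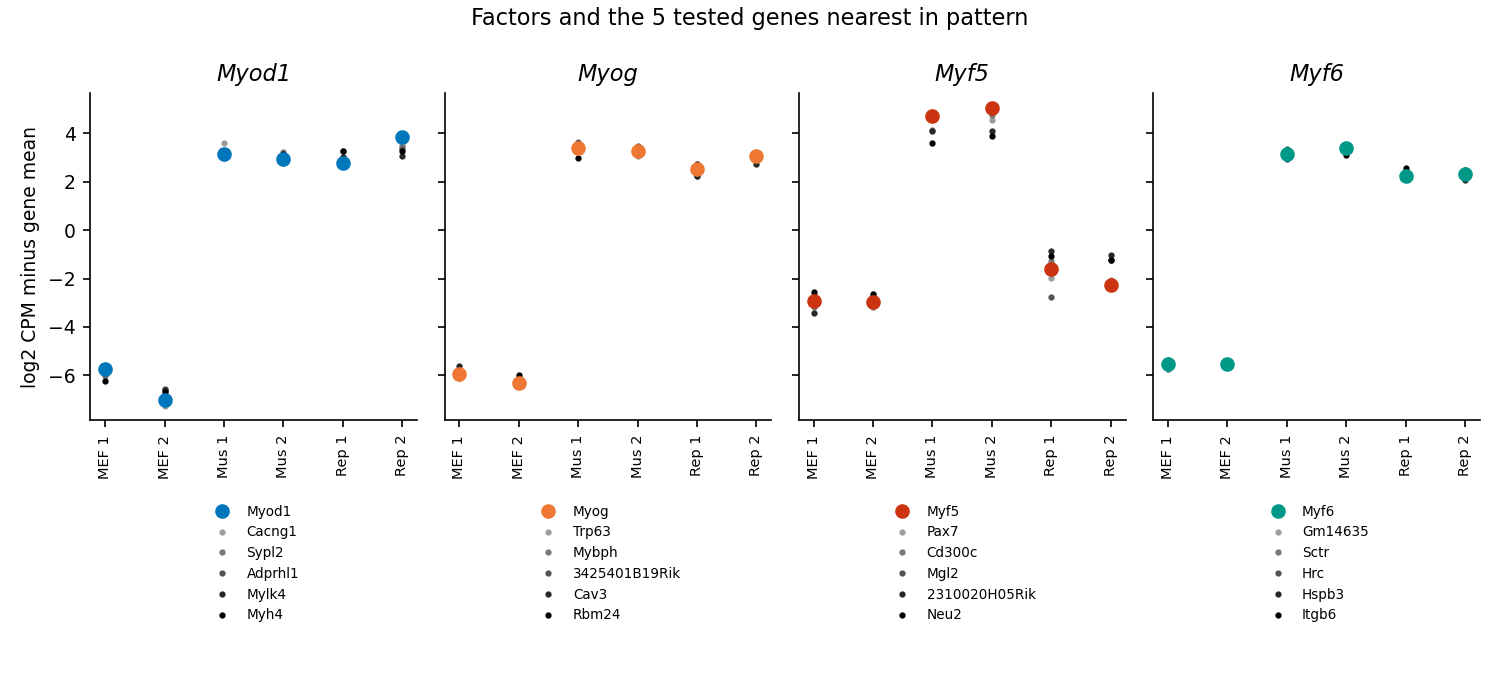
Log2 CPM minus the gene's own mean (y axis) in the 6 libraries for each factor (coloured) and the 5 tested genes nearest to it in pattern (grey to black). Mus, muscle. Rep, reprogrammed cells. Myf5 and its neighbours in pattern, Pax7 among them, are high in muscle only, while the other 3 factors are high in muscle and reprogrammed cells.

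Genes beside the factors on the chromosome differed between the loci. Around Myod1, 4 neighbours within 100 kb passed the filter. Otog, Kcnc1 and 1700025L06Rik were higher than in MEF in both muscle and reprogrammed cells, and Sergef was not called. Over all tested genes 17.3% were called higher in muscle and 15.9% in reprogrammed cells. Otog, Kcnc1 and 1700025L06Rik were at 0.0551 CPM or less on average in MEF. They passed the filter only through the other groups, so their calls were in part set by it. Kcnc1, a potassium channel gene 17.4 kb downstream of Myod1, had 1 count in MEF and was at 17.3 ± 1.43 CPM in muscle and 17.9 ± 3.81 CPM in reprogrammed cells (edgeR adjusted p = 1.4e-05 and 1.8e-05 against MEF). The lincRNA 1700025L06Rik, 27.1 kb upstream, had 0 counts in MEF and was at least 59.1-fold higher in muscle and at least 33.8-fold higher in reprogrammed cells (edgeR adjusted p = 1.0e-04 and 2.6e-04). Around Myog, Ppfia4, Adora1, Mybph and Chil1 were higher than in MEF in both groups and Tmem183a was not called. Adora1 (0.100 CPM on average in MEF) and Chil1 (0.0275 CPM) likewise passed the filter only through the other groups. Mybph, a myosin-binding protein gene 88.8 kb from Myog, went from 4.29 ± 0.162 CPM in MEF to 3374 ± 650 CPM in muscle and 2125 ± 867 CPM in reprogrammed cells, and Adora1, the adenosine receptor gene, was also lower in reprogrammed cells than in muscle (edgeR adjusted p = 0.0251).

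The locus on chromosome 10 was different. Beside Myf5 and Myf6, Lin7a and Ptprq passed the filter there. Ptprq, a receptor phosphatase gene 22.3 kb from Myf6, had 5.55 ± 2.39 CPM in MEF, 0.164 ± 0.112 CPM in muscle and 1.87 ± 0.529 CPM in reprogrammed cells, a lower level for muscle against MEF (edgeR adjusted p = 5.5e-04) and a higher one for reprogrammed cells against muscle (edgeR adjusted p = 0.0132). Lin7a stayed under 1 CPM on average in all groups and was not called. Thus in reprogrammed cells Myf6 was called above MEF with its neighbour Myf5 at 8 counts over both libraries.

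Partners and inhibitors of the factors were described from lists that were chosen with earlier results of these data known. In these and the lists below, members near 0 in MEF passed the filter only through the other groups. Their calls against MEF were therefore in part set by it. Of the 3 E protein genes, Tcf3, Tcf4 and Tcf12, the dimer partners, 0 of 3 were called by edgeR in either direction in reprogrammed cells against MEF, and 0 by DESeq2 or at an unadjusted p under 0.05, with 1 called lower when MEF replicate 2 was left out. The smallest adjusted p of the 3 was 0.304 in edgeR, for Tcf3, with 115 ± 64.2 CPM in MEF against 70.9 ± 35.9 CPM in reprogrammed cells. Over all tested genes 15.9% were called higher and 11.3% lower in that comparison, so 0 of 3 calls is near the background. In muscle Tcf4 was higher than in MEF (0.78 ± 0.24, edgeR adjusted p = 0.0306), a call lost when any MEF or muscle library was left out, with a replicate block and with no count filter.

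Of 14 inhibitors and repressors, 9 were lower and 4 higher in reprogrammed cells than in MEF. Over all tested genes 11.3% were called lower and 15.9% higher. The median log2 fold change of the list was -1.30 against 0.07 over all tested genes. The muscle libraries had 9 below MEF and 3 above it (median -2.80 against 0.00 over all genes). Of all tested genes 18.3% were called lower and 17.3% higher there, so the 3 above MEF are near the background. Id3, which sequesters E proteins, was at 1228 and 723 CPM in MEF, 62.9 and 44.6 CPM in muscle and 31.3 and 53.99 CPM in reprogrammed cells (edgeR adjusted p = 8.8e-05 against MEF). All 4 Id genes were lower than in MEF in both groups. Heyl, a Notch effector, went the other way, from 1.87 and 1.51 CPM in MEF to 23.9 and 33.99 CPM in reprogrammed cells (edgeR adjusted p = 5.7e-05). Msc, a repressor of the bHLH class, had 0 counts in MEF and 1.01 and 1.31 CPM in reprogrammed cells, at least 7.46-fold higher.

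Against muscle, 4 of the 14 inhibitors were higher in reprogrammed cells and 0 lower (edgeR; 0 lower with DESeq2 and 1 at an unadjusted p under 0.05), where 7.58% of all tested genes were called higher. They were Id2, Twist1, Twist2 and Hey1, named after their values were seen. Twist1, which blocks the factors in mesenchymal cells, was at 61.2 ± 9.50 CPM in MEF, 7.40 ± 0.819 CPM in muscle and 25.6 ± 0.867 CPM in reprogrammed cells (edgeR adjusted p = 0.00387 against muscle). With either muscle library left out 1 of the 14 was called.

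Upstream regulators, which act before the factors in the embryo and in satellite cells, were a list of 10 genes. In muscle 5 were higher and 2 lower than in MEF (17.3% and 18.3% of all tested genes). The 2 lower ones are near the background, and 1 was called with DESeq2, with no count filter and with a replicate block. In reprogrammed cells 3 were higher and 1 lower than in MEF (15.9% and 11.3% of all tested genes). Against muscle, 4 were lower in reprogrammed cells, where 2.46% of all tested genes were called lower. Pax7 and Lbx1 were among those 4, and Pax7 had passed the filter only through its level in muscle. Lbx1, a homeobox gene of migrating muscle precursors, had 1 count over the 2 MEF libraries, was at 49.8 and 42.7 CPM in muscle and at 0.956 and 1.16 CPM in reprogrammed cells, a difference from muscle of -5.44 ± 0.40 (edgeR adjusted p = 1.8e-04). Barx2 had 0 counts in MEF and 3.15 and 3.63 CPM in reprogrammed cells, at least 21.8-fold higher. Eya2, a transcriptional coactivator, was at 5.29 and 5.15 CPM in MEF and 1.12 and 1.02 CPM in reprogrammed cells (edgeR adjusted p = 0.00377). The list's median against MEF in reprogrammed cells was 0.14, and -0.15 with genes at 0 counts in a group set to their bound, so its sign depends on them. Without reprogrammed replicate 1, 2 of the 10 were called lower than in MEF in place of 1.

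Of 11 cofactors, 6 were higher and 2 lower in reprogrammed cells than in MEF (median 1.13 against 0.07 over all tested genes, of which 15.9% and 11.3% were called higher and lower). The calls for muscle were 7 and 2, where 17.3% and 18.3% of all tested genes were called, so the 2 lower cofactors there are near the background. Mef2c, the MADS-box partner that activates muscle genes together with the factors, was at 9.58 and 14.3 CPM in MEF, 974 and 1181 CPM in muscle and 958 and 845 CPM in reprogrammed cells (edgeR adjusted p = 4.6e-06 for reprogrammed cells against MEF). The muscle methyltransferase Smyd1 was at 0.496 and 0.486 CPM in MEF and 382 and 372 CPM in reprogrammed cells, and the chromatin remodelling subunit Smarcd3 at 14.7 and 10.7 CPM in MEF and 42.7 and 59.5 CPM in reprogrammed cells. Leaving out reprogrammed replicate 1 took the 2 lower members to 0 and leaving out any other library to 1, and without muscle replicate 1 the 7 cofactors higher in muscle were 4.

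Targets of the factors were higher in reprogrammed cells almost throughout. Of 15 early targets 14 were higher than in MEF, with a median log2 fold change of 6.30, and of 17 late targets all 17 were higher, with a median of 8.88, against 0.07 over all tested genes, of which 15.9% were called higher. In muscle all 15 and all 17 were higher, with medians of 8.77 and 9.40, where 17.3% of all tested genes were called higher. Early targets such as Dok7, Chrnd and Chrng were at 0.0486, 0.347 and 0.478 CPM on average in MEF. The late targets Chrne and Tnnc2, named after their values were seen, were at 0.0275 and 0.146 CPM. Such genes passed the filter only through the other groups, so their calls were in part set by it. The early target that was not called above MEF was Cdkn1c, a cell-cycle inhibitor, at 16.3 ± 1.67 CPM in MEF, 33.2 ± 3.86 CPM in muscle and 8.93 ± 1.34 CPM in reprogrammed cells (edgeR adjusted p = 0.0501 against MEF, and called lower with DESeq2), named after its values were seen. The acetylcholine receptor subunits Chrng and Chrnd were at 0.275 and 0.680 CPM and at 0.110 and 0.583 CPM in the MEF libraries, and reached 252 and 466 CPM and 199 and 279 CPM in reprogrammed cells. Among late targets, muscle creatine kinase Ckm was at 567 and 773 CPM in reprogrammed cells and 938 and 1040 CPM in muscle, and the fast troponin Tnni2 at 1960 and 1571 CPM and at 1539 and 1765 CPM.

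**Figure D5:**
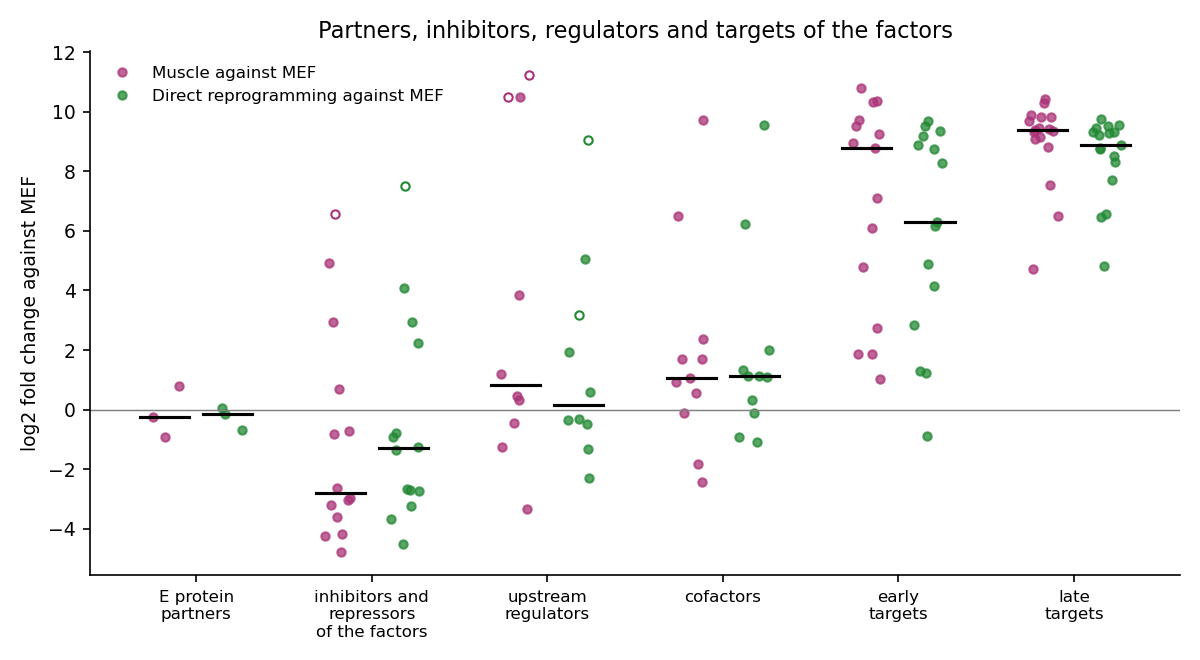
Log2 fold change against MEF (y axis) of every tested gene in the 6 lists, for muscle and for reprogrammed cells. The lists were chosen with earlier results of these data known. Black bars are list medians, and open points are genes with 0 counts in a group. Target genes lie far above 0 in both groups (medians of 6.30 to 9.40), while inhibitors lie mostly below it.

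Against muscle, 4 of 15 early targets and 2 of 17 late targets were lower in reprogrammed cells and 0 were higher (edgeR; also 0 higher with DESeq2 and at an unadjusted p under 0.05), against 2.46% of all tested genes called lower. The early targets were Cdkn1c, Musk, Chrna1 and Chrnd, and the late targets Neb and Tnni1, of which all but Chrnd were named after their values were seen. Musk, the receptor kinase that organises the neuromuscular synapse, was at 219 ± 55.1 CPM in muscle and 31.8 ± 11.1 CPM in reprogrammed cells (-2.79 ± 0.36, edgeR adjusted p = 0.00189). With a muscle library left out, or reprogrammed replicate 1, 2 early targets were called lower. The number of late targets was 0 without muscle replicate 2, 1 without muscle replicate 1 or either reprogrammed library, and 5 and 4 without MEF replicates 1 and 2.

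The 2 reprogrammed libraries differed in the factors themselves. Myod1 was 2.13 times and Myog 1.44 times as high in replicate 2 as in replicate 1, while Myf6 differed by 1.05 times. Myf5 was lower in replicate 2, at 3 counts (0.145 CPM) against 5 (0.281 CPM). In the muscle libraries the higher value was 1.16 times the lower for Myod1 and 1.11 times for Myog. Of the 15 early targets 13 were higher in reprogrammed replicate 2, with a median log2 difference of 0.58, and of the 17 late targets 8 were, with a median of -0.06. Of the 14 inhibitors and repressors 11 were higher in replicate 2 (median 0.27), as were 2 of 3 E protein genes, 5 of 10 upstream regulators and 6 of 11 cofactors. Over all tested genes 49.8% were higher in replicate 2. This is a description of 2 libraries, with no test.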

How the data were processed

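RNA of 6 samples was made into strand-keeping poly(A) libraries (Lexogen SENSE mRNA-seq V2) and sequenced as single-end reads of 75 bases, per the labels' protocols. The authors deposited raw read counts for each gene symbol and library. The submitters' processing notes name DESeq2 1.26.0, featureCounts 1.6.2, HISAT2 2.1.0, Trim Galore 0.6.0 and mm10, and give no roles. The sources used here do not give the annotation or the strand setting of the counting. The authors also deposited a table of a comparison of their own, with log2 fold changes and their standard errors, p-values and adjusted p-values, per the file headers.

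R 4.3.3 and edgeR 4.0.16 were used. The filterByExpr filter by group left 17400 genes, which were TMM scaled and fitted over all 6 libraries with group as the only term (quasi-likelihood, robust, legacy dispersion), leaving 3 residual degrees of freedom. P-values were Benjamini-Hochberg adjusted over all tested genes in each comparison, and calls were made under 0.05. The SE is the size of the log2 fold change divided by the square root of F. The biological coefficient of variation was 27.3%. The fit was run on simulated data, in which most changes of 2-fold were not called. Levels per length use the longest GENCODE M21 transcript, matched by symbol for 53289 symbols. "At least" folds use the mean level of 3 counts in the MEF libraries, 0.155 CPM. Patterns were compared on log2 CPM with a prior count of 2.

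The members, the 6 lists and the tests were chosen with earlier results of these data known. Named genes are the 4 members, from each list the 3 with the largest change from MEF in reprogrammed cells among those called with libraries that do not overlap, the 5 genes nearest in pattern to each member, and tested genes within 100 kb of a member. Alternatives were DESeq2 1.42.0, other scalings, no filter, only the libraries compared, another dispersion, a replicate block and leaving out each library. Values of some list members are not reported here.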

Additional observations from a re-analysis of the deposited data

How the results depend on the processing

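The calls of Myod1, Myog and Myf6 against MEF in both groups, and those of Myf5 in muscle against MEF and against reprogrammed cells, held under all alternatives run. Myf5 in reprogrammed cells against MEF was called in none of those that could be fitted (edgeR and DESeq2 adjusted p = 0.126 to 0.463), and it did not pass the filter when only the 4 libraries compared were fitted. Myod1 between reprogrammed cells and muscle ranged from -0.28 without reprogrammed replicate 2 to 0.82 without replicate 1. Myf6 between them was called with DESeq2 (log2 fold change -1.01), with no count filter (-0.99, edgeR adjusted p = 0.04997) and with only the 4 libraries compared (-0.98). With single libraries left out Myf6 ranged from -1.11 to -0.86, called without either MEF library and in no other such case. The cause was not tested.

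Same-numbered libraries did not deviate from their group means alike in all groups. Deviations of same-numbered libraries correlated at 0.31 between MEF and muscle but at -0.53 and -0.29 between reprogrammed cells and these groups. With 2 libraries a group, a negative value for the same numbers is a positive value of the same size for crossed numbers. The replicate block used the numbers as given. Whether the libraries pair across numbers was not tested, and no block with crossed numbers was fitted. With a replicate block no call of a member changed, the 1 E protein gene called higher in muscle than in MEF was lost, and 265 genes were lower in reprogrammed cells than in muscle in place of 428 (670 with no count filter). With single libraries left out, that number ranged from 140 (without Muscle replicate 2) to 605, and the 1319 higher genes from 589 to 1616. Against MEF the 3009 genes higher in muscle ranged from 1980 to 3223, the 3189 lower ones from 1778 to 3445, and the 1973 lower in reprogrammed cells from 1280 to 1926.

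Among the lists, the late targets lower in reprogrammed cells than in muscle (2) ranged from 0 without Muscle replicate 2 to 5, and the early targets (4) from 2. The cofactors lower in reprogrammed cells than in MEF (2) ranged from 0 without reprogrammed replicate 1, and those higher in muscle (7) were 4 without Muscle replicate 1. With 2 libraries a group, low counts limit what can be said of Myf5 and Myf6 in MEF.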
